A study of Mus musculus with 12 samples.

Results

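The genes Sgsm3, Adgrl3, Slc35f4, Fam227b, Nat8f5, Clec2l and Myh7 were followed across the 4 groups of a microarray series on mouse spinal cord astrocytes. They had been picked because their signal was lower in late-stage SOD1 G93A than in non-transgenic (NTg) mice, so that their late-stage values are a description and carry no test. All 7 genes were measured, out of 18194 genes with a probe set of their own, by 16 of the 45101 probe sets on the array. Of these 16, 14 were annotated to 1 member gene and 2 to Myh7 and Myh6 together. The rule carried no threshold.

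RNA came from astrocytes cut by laser capture microdissection out of lumbar spinal cord sections of male mice, 3 SOD1 G93A and 3 NTg littermates at 90 days (symptomatic) and 3 and 3 other mice at 120 days (late-stage), with 1 Affymetrix Mouse Genome 430 2.0 GeneChip per mouse. The transgene of the SOD1 G93A mice is human SOD1 with a mutation found in ALS, and the strain, B6SJL-Tg (SOD1 G93A) 1 Gur/J, had been backcrossed to C57Bl/6 J Ola/Hsd. Its human promoter is active in many cell types, so the mutant protein is not limited to astrocytes. Whether probe sets designed on mouse transcripts read the human transcript was not examined, so they were not used to check the genotype labels. Values are MAS5 signal intensities with the trimmed mean of each array set to 100. Log2 fold changes are SOD1 G93A minus NTg of log2(intensity + 7) after quantile normalization within each age, and understate the change of dim probe sets.

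The captured RNA was mixed. All 13 astrocyte marker genes listed passed the filter on dim signals, and the gap junction protein gene Gja1 averaged 5186 in SOD1 G93A and 3670 in NTg mice at 120 days. All 14 neuronal, 10 of 12 microglial and 9 of 10 oligodendrocyte marker genes passed the filter too. The oligodendrocyte gene Mbp averaged 22115 in SOD1 G93A and 12715 in NTg mice at 120 days. The filter was passed by 12458 of 18194 genes in all and by 9 of 18 muscle genes, so passing alone says little on the cells captured. The late-stage SOD1 G93A arrays stood apart from the others. Their median signals were 38.8 to 55.2, against 27.9 to 37.1 for NTg at 120 days, with 27.8 to 29.8 for SOD1 G93A and 24.9 to 30.4 for NTg at 90 days. Their mean correlations with the other arrays of their group were 0.83 to 0.88, lowest for replicate 3, against 0.91 to 0.95 in the 3 other groups. A lower signal of a gene in captured tissue can mean fewer cells that express it or less RNA per cell, which cannot be told apart here.

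The genes belong to unrelated families. Sgsm3 encodes a TBC-domain regulator of small G proteins that also binds the gap junction protein connexin 43, and Adgrl3 encodes latrophilin 3, an adhesion receptor at synapses that binds FLRT and teneurin proteins on the opposite cell. Slc35f4 belongs to the family of nucleotide sugar transporters and its substrate is not settled, Nat8f5 belongs to a family of N-acetyltransferases, Clec2l encodes a C-type lectin found in brain, and Myh7 encodes the myosin heavy chain of slow skeletal muscle and heart. Little is known of Fam227b.

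The start regions of the genes were compared to see which letters the chosen genes share. Each window holds 250 bases before and 50 after an annotated start (RefSeq, GRCm38.p6), and all 7 genes had an entry, 10 in all. Shown are Sgsm3, whose late NTg arrays stand apart, Fam227b, lower in SOD1 G93A without overlap at both ages, and Myh7, a muscle gene. Capitals mark a CCAAT box (CCAAT) or a GC box (GGGCGG) read on either strand. The windows are chr15:80977515-80977814 (plus strand), chr2:126151955-126152254 (minus strand) and chr14:54994500-54994799 (minus strand).
Sgsm3: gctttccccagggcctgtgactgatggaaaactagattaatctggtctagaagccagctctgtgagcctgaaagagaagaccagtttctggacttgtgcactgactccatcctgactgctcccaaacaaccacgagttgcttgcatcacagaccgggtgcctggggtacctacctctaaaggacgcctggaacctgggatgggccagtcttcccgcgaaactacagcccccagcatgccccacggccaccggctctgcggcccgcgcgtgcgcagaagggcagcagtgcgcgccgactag
Fam227b: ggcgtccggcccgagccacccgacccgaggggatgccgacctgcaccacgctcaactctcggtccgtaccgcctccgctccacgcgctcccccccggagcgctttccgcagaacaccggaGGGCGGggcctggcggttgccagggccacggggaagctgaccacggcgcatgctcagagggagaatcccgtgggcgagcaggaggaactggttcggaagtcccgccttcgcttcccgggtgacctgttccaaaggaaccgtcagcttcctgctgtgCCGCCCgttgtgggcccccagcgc
Myh7: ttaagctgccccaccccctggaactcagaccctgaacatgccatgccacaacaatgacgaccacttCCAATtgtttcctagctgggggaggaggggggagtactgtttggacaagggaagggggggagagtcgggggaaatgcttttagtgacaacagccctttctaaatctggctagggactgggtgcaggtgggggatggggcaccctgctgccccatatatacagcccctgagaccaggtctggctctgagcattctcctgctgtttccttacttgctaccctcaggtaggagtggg

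The windows shown differed in these letters. The Fam227b window held 32 CpG dinucleotides and 2 GC boxes, the Sgsm3 window 15 CpG and neither box, and the Myh7 window 2 CpG and 1 CCAAT box. Over 32851 promoters of the same length the median was 7 CpG. A GC box stood in 35.7% of those promoters, a CCAAT box in 37.4%, a TATA box (TATAAA) in 13.6% and an E-box (CANNTG, both strands) in 72.3%. The Clec2l window had 29 CpG and 1 GC box, that of Slc35f4 18 CpG and 1 GC box, and that of Nat8f5 4 CpG and 1 CCAAT box. Across the 3 windows of Adgrl3 the number of CpG was 20 to 40, all of them held a GC box and 1 held a TATA box. A second Myh7 window had 5 CpG and 1 CCAAT box. The windows of Sgsm3, Adgrl3, Slc35f4, Fam227b and Clec2l thus had more CpG than the median, and those of Nat8f5 and Myh7 fewer. These matches describe letters in a window and say nothing on binding.

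The plot of the brightest probe set of each gene shows the pattern on which the account turns.

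**Figure D1:**
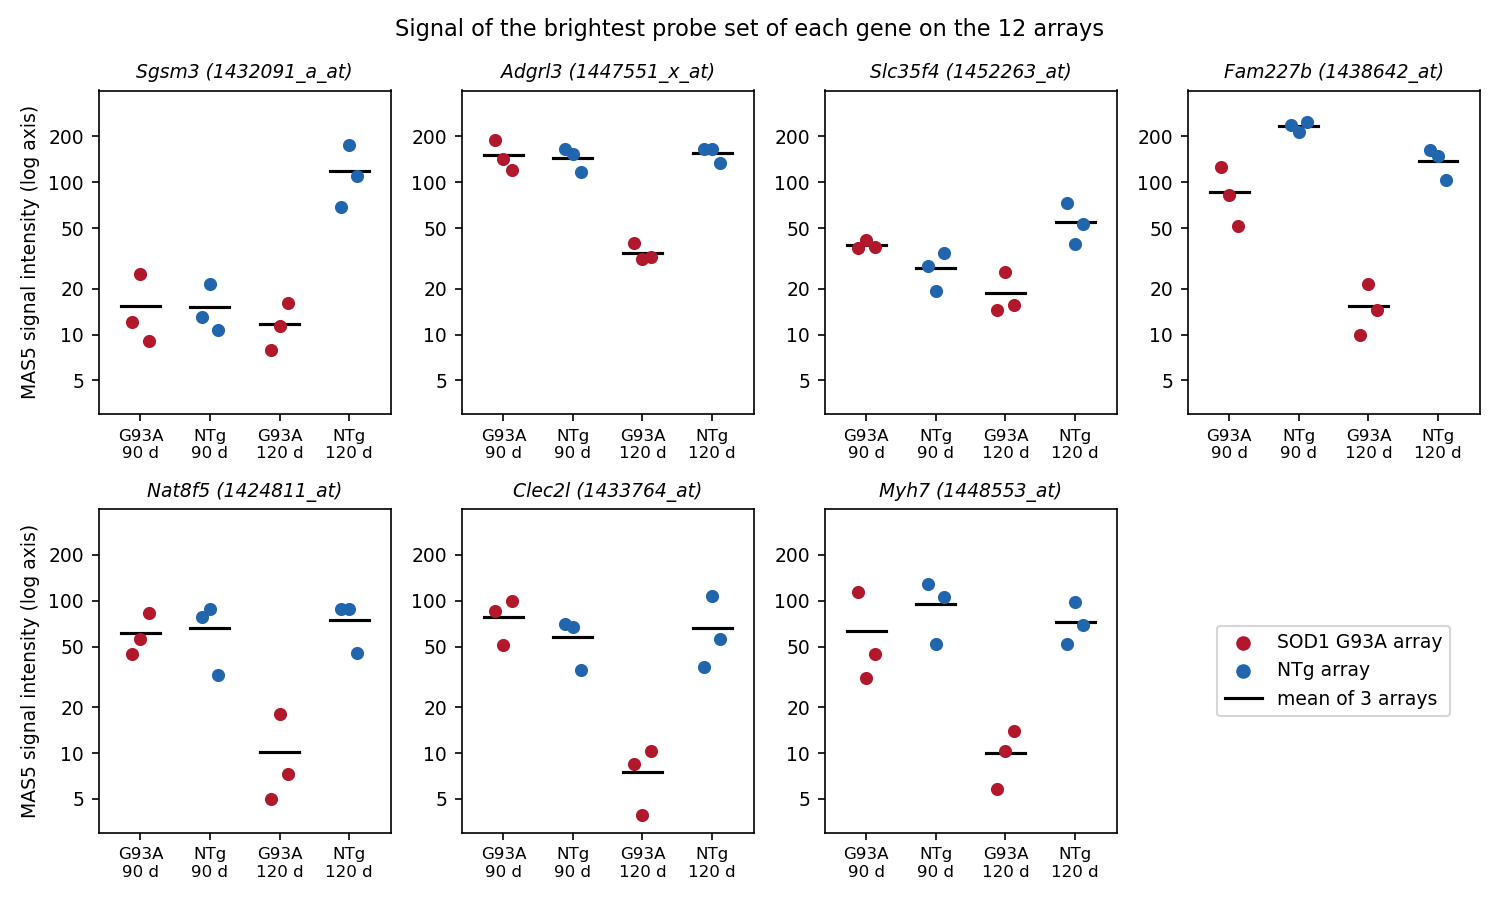
MAS5 signal intensity (log axis) of the brightest probe set of each gene on the 12 arrays, with SOD1 G93A in red, NTg in blue and a bar at the mean of the 3 arrays of a group. For Adgrl3, Fam227b, Nat8f5, Clec2l and Myh7 the late-stage SOD1 G93A arrays lie below the arrays of all 3 other groups, while for Sgsm3 the late-stage NTg arrays lie above all others.

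Sgsm3 (probe set 1432091_a_at) was high in 1 group only. Its intensities were 7.9, 11.4 and 16.1 in SOD1 G93A and 68.3, 174.7 and 110.0 in NTg mice at 120 days. At 90 days they were 12.1, 24.8 and 9.1 in SOD1 G93A and 13.1, 21.5 and 10.7 in NTg mice. Thus 3 groups shared a low range, and the late-stage NTg mice alone were high, with a mean of 118 ± 53.6 (SD, n = 3) against 15.1 ± 5.67 in NTg mice at 90 days. The probe set exceeded the median of its array on the 3 late-stage NTg arrays and on no other, and it passed the filter through that group only. The late-stage log2 fold change was -2.86 (standard error 0.36), rank 3 from the lowest among 12458 genes. At 90 days that value was -0.06 (95% interval -0.83 to 0.71, limma adjusted p = 1.00).

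The Sgsm relatives Sgsm1 and Sgsm2 had late-stage log2 fold changes of -0.24 (limma adjusted p = 0.580) and 0.25 (limma adjusted p = 0.611). Of 12 small G protein genes and partners of the family, 1 was called higher at 120 days, beside 4.13% of all genes, and none lower. None passed at 90 days, when none had an unadjusted p under 0.05 either. The called gene was Rap2b, which encodes a Rap GTPase, with a log2 fold change of 0.97 (limma adjusted p = 0.0414). Its call was lost under 12 of 16 other settings, including the omission of any 1 of the 6 late-stage arrays. Gja1, which encodes connexin 43, had a log2 fold change of 0.32 (limma adjusted p = 0.438).

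Adgrl3 was read by 6 probe sets, and they did not move alike. The brightest (1447551_x_at) had intensities of 40.0, 31.4 and 32.1 in SOD1 G93A and 165.6, 166.1 and 134.3 in NTg mice at 120 days. At 90 days the values were 190.2, 142.9 and 119.7 in SOD1 G93A and 164.8, 153.3 and 117.1 in NTg mice. The late-stage SOD1 G93A arrays were low and tight (34.5 ± 4.78, SD, n = 3) and did not overlap with the other 3 groups, which shared one range. On the log2 scale SOD1 G93A minus NTg was -2.18 (standard error 0.27) at 120 days and 0.01 (95% interval -0.58 to 0.61, limma adjusted p = 1.00) at 90 days. The suffix of this probe set marks probes that can also bind other transcripts.

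The other Adgrl3 probe sets gave smaller late-stage differences. For 1428523_at the log2 fold change was -0.66 at 120 days, and its intensities of 86.5, 51.2 and 76.3 in late-stage SOD1 G93A mice lay below the 113.7, 97.1 and 91.2 of late-stage NTg mice but above the 40.7 to 43.7 of symptomatic SOD1 G93A mice. Here the late-stage arrays of both genotypes were the high ones. For 1460440_at, 1439313_at and 1458742_at the late-stage log2 fold changes were -1.59, -1.40 and -0.90. In all 3 the lowest late-stage SOD1 G93A array was replicate 3, with 4.5, 8.8 and 4.8, and without it these values were -0.94, -0.91 and -0.01. The probe set 1452819_at failed the filter, with 18.1 to 24.6 in SOD1 G93A and 13.7 to 32.4 in NTg mice at 120 days. In all, 3 of the 6 probe sets had every SOD1 G93A array below every NTg array at the late stage.

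The latrophilins Adgrl1 and Adgrl2 had late-stage log2 fold changes of -0.50 (limma adjusted p = 0.215) and -0.37 (limma adjusted p = 0.380). Among 13 measured genes of latrophilin ligands and their partners, 1 fell at 120 days, the synaptic adhesion gene Nrxn3 (log2 fold change -1.46, limma adjusted p = 0.0252), beside 4.45% of all genes called lower at that age, and none passed at 90 days, when none had an unadjusted p under 0.05. The call of Nrxn3 was lost with 120 days fitted alone and without late-stage SOD1 G93A replicate 3, NTg replicate 2 or NTg replicate 3. The ligand genes Flrt1, Flrt2 and Flrt3 had values of -0.24, -0.47 and -0.10, and Tenm1, Tenm2, Tenm3 and Tenm4 of -0.80, -0.77, -0.62 and 0.60, and none of these 7 had an adjusted p under 0.05 in limma.

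Slc35f4 (1452263_at) had intensities of 14.6, 25.9 and 15.6 in SOD1 G93A and 73.0, 39.6 and 53.1 in NTg mice at 120 days. At 90 days SOD1 G93A mice had 37.0, 41.7 and 37.8, and NTg mice had 28.3, 19.3 and 34.1. So every SOD1 G93A array was above every NTg array at 90 days and below every NTg array at 120 days. Its log2 fold change was 0.37 (95% interval -0.19 to 0.93, limma adjusted p = 1.00) at 90 days and -1.60 (standard error 0.26) at 120 days. This was the smallest late-stage difference of the 7 genes, at rank 176 of 12458. The second probe set (1432142_at) failed the filter and stayed between 0.6 and 19.0 on all arrays.

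Among the paralogs of Slc35f4, Slc35f1 fell at 120 days (log2 fold change -1.05, limma adjusted p = 0.0377), a call lost under 7 of 16 other settings (5 of them the omission of 1 late-stage array), and Slc35f3 had -0.85 (limma adjusted p = 0.0796). Of 17 measured carrier genes in other branches of the Slc35 family, 1 fell, close to the 4.45% of all genes, namely Slc35d3, with a log2 fold change of -1.89 (limma adjusted p = 0.0207) at 120 days and -1.61 (limma adjusted p = 0.319) at 90 days. Its late-stage call was lost under 3 of 16 settings, the omission of SOD1 G93A replicate 2, NTg replicate 2 or NTg replicate 3.

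Fam227b (1438642_at) had intensities of 9.9, 21.6 and 14.6 in SOD1 G93A and 163.1, 149.2 and 102.8 in NTg mice at 120 days. At 90 days the values were 125.2, 83.0 and 51.3 in SOD1 G93A and 236.5, 213.8 and 250.3 in NTg mice. SOD1 G93A was below NTg at both ages without overlap, and within each genotype the late-stage arrays were below the symptomatic ones. For the symptomatic stage the log2 fold change was -1.46 (standard error 0.32, 95% interval -2.15 to -0.77). It came from other mice than those of the late-stage contrast. The standard error and interval rest on a spread estimate that also uses the late-stage arrays. The difference missed the threshold over all probe sets in limma (adjusted p = 0.149). With each age fitted alone the limma adjusted p was 0.286. With array weights it was 0.0212 and with the offset at the 50th percentile 0.0414, and over all alternatives it reached up to 0.528. At 120 days the log2 fold change was -2.91 (standard error 0.32), rank 1 of 12458 genes with the offset of 7. The order of Fam227b and Sgsm3 was not fixed, since with an offset of 1 the values were -3.42 and -3.46, and without late-stage NTg replicate 1 they were -2.78 and -3.16. The second probe set (1430919_at) was dim, failed the filter and did not share the difference. At 90 days it ran the other way without overlap, with 13.3, 17.9 and 7.2 in SOD1 G93A and 0.7, 6.5 and 3.6 in NTg mice. The late-stage groups overlapped, with 34.8, 2.0 and 27.9 in SOD1 G93A and 18.0, 0.4 and 10.3 in NTg mice. For the relative Fam227a the late-stage value was -0.03 (limma adjusted p = 0.979).

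Nat8f5 (1424811_at), formerly Cml5, had intensities of 5.0, 18.0 and 7.3 in SOD1 G93A and 88.5, 88.9 and 45.6 in NTg mice at 120 days. At 90 days the values were 44.7, 56.1 and 82.5 in SOD1 G93A and 78.7, 88.1 and 32.5 in NTg mice. The symptomatic groups overlapped, and the late-stage SOD1 G93A arrays were below all 9 others. Log2 fold changes were -0.07 (95% interval -0.94 to 0.80, limma adjusted p = 1.00) at 90 days and -2.52 (standard error 0.40) at 120 days.

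Of the genes related to the members, 21 of 33 on the array passed the filter, none passed the test at 90 days in limma (2 had an unadjusted p under 0.05) and 4 fell at 120 days, Nat8, Nat8l, Slc35f1 and Myh10 (4.45% of 12458 genes were called lower at that age). Nat8, which like Nat8f5 belongs to the family of N-acetyltransferase 8, had mean intensities of 33.9 in SOD1 G93A and 105.5 in NTg mice at 120 days (log2 fold change -1.70, limma adjusted p = 0.00538), and the call was kept under all 16 settings tried. Nat8l, which encodes the enzyme that makes N-acetylaspartate, had a log2 fold change of -0.97 (limma adjusted p = 0.0240), and lost the call under 6 of them, among them the omission of SOD1 G93A replicate 2, NTg replicate 2 or NTg replicate 3. Nat8f1, Nat8f3 and Nat8f4 had values of -0.54, -0.18 and -0.77, with limma adjusted p of 0.337, 0.841 and 0.0919. Probes of this family can share sequence, and how far they do was not tested.

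Clec2l (1433764_at) had intensities of 8.5, 3.9 and 10.3 in SOD1 G93A and 36.9, 106.7 and 56.3 in NTg mice at 120 days. At 90 days the values were 85.7, 51.1 and 99.0 in SOD1 G93A and 70.7, 67.4 and 35.2 in NTg mice. The late-stage SOD1 G93A arrays were again below all others, and the NTg arrays of both ages covered a similar range. Clec2l had log2 fold changes of 0.39 (95% interval -0.45 to 1.22, limma adjusted p = 1.00) at 90 days and -2.47 (standard error 0.39) at 120 days. The late-stage value depended most on NTg replicate 2, without which it was -2.10. The related lectin gene Clec2d failed the filter, with 1.2 to 9.0 on the late-stage arrays.

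Myh7 (1448553_at) had intensities of 5.8, 10.4 and 13.9 in SOD1 G93A and 51.7, 97.8 and 69.4 in NTg mice at 120 days. At 90 days the values were 114.0, 31.2 and 44.5 in SOD1 G93A and 128.0, 52.3 and 105.3 in NTg mice. The symptomatic groups overlapped and spread widely, and the late-stage SOD1 G93A arrays were below all others. Myh7 had log2 fold changes of -0.69 (95% interval -1.60 to 0.22, limma adjusted p = 1.00) at 90 days and -2.46 (standard error 0.42) at 120 days. Of the 2 probe sets shared with Myh6, 1448554_s_at had 0.8, 1.7 and 7.9 in SOD1 G93A and 3.1, 10.7 and 19.0 in NTg mice at 120 days (log2 fold change -1.08). The other, 1448827_s_at, failed the filter with at most 7.7 on any array. At 120 days it ran the other way without overlap, with 7.7, 1.5 and 7.7 in SOD1 G93A and 1.0, 1.2 and 0.3 in NTg mice. The gene Myh6 itself did not pass the filter on its own probe sets.

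No gene on a list of 18 from skeletal and cardiac muscle was called lower with Myh7. Of these, 9 passed the filter and none passed the test at either age in limma (0 at 90 days and 2 at 120 days had an unadjusted p under 0.05). Their median fold changes on the log2 scale were 0.10 for 90 days and 0.76 for 120 days. The mean log2 signal of the list was 5.46 to 6.05 in SOD1 G93A and 5.02 to 5.24 in NTg mice at 120 days. The creatine kinase gene Ckm had 1.64 (limma adjusted p = 0.0606), and Tnni1, the troponin I of slow fibres, 1.65 (limma adjusted p = 0.0736). With the values as deposited 2 genes of the list passed. Of the related myosin genes, Myh10, a non-muscle myosin, fell at 120 days, with mean intensities of 739 in SOD1 G93A and 2249 in NTg mice (log2 fold change -1.56, limma adjusted p = 0.00254), a call kept under all 16 settings. Myh7b had -0.45 (limma adjusted p = 0.514) and the non-muscle gene Myh9 0.87 (limma adjusted p = 0.146).

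Over all member probe sets the genotype difference had a median of -0.06 at 90 days and -1.49 at 120 days. Yet over all 26132 probe sets tested, 0 were called in limma for the difference of the genotype contrast between the ages. Of the 12 member probe sets that passed the filter, none was called at 90 days. At that age 0.138% of 26132 probe sets were called in limma in either direction, and 0.225% of genes. The Fam227b probe set was the 1 with an unadjusted p under 0.05. It was also the 1 of these 12 with every SOD1 G93A array below every NTg array at that age, against 4.86% of all probe sets tested, and 1 of the 12, that of Slc35f4, had every SOD1 G93A array above. Over all 16, including the 4 that failed the filter, 1 was below and 3 were above, among them the dim 1432142_at and 1430919_at, which failed it. The share of all probe sets with every SOD1 G93A array above at 90 days was not counted, so the counts above have no background. Across the 7 brightest probe sets the median was -0.06 at 90 days, with 0.02 over all genes. That median is the value of Sgsm3, whose probe set exceeded the median of no array at 90 days and passed the filter through the late-stage NTg arrays only. At 120 days 7 of the 12 were called lower, beside 3.86% of all probe sets, and 9 of the 12 had every SOD1 G93A array below every NTg array, beside 15.8% of all. Since the genes were chosen on this contrast, these late-stage counts follow from the choice. The 5 tested probe sets that were not called were the other 4 of Adgrl3 and the 1 shared by Myh7 and Myh6.

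**Figure D2:**
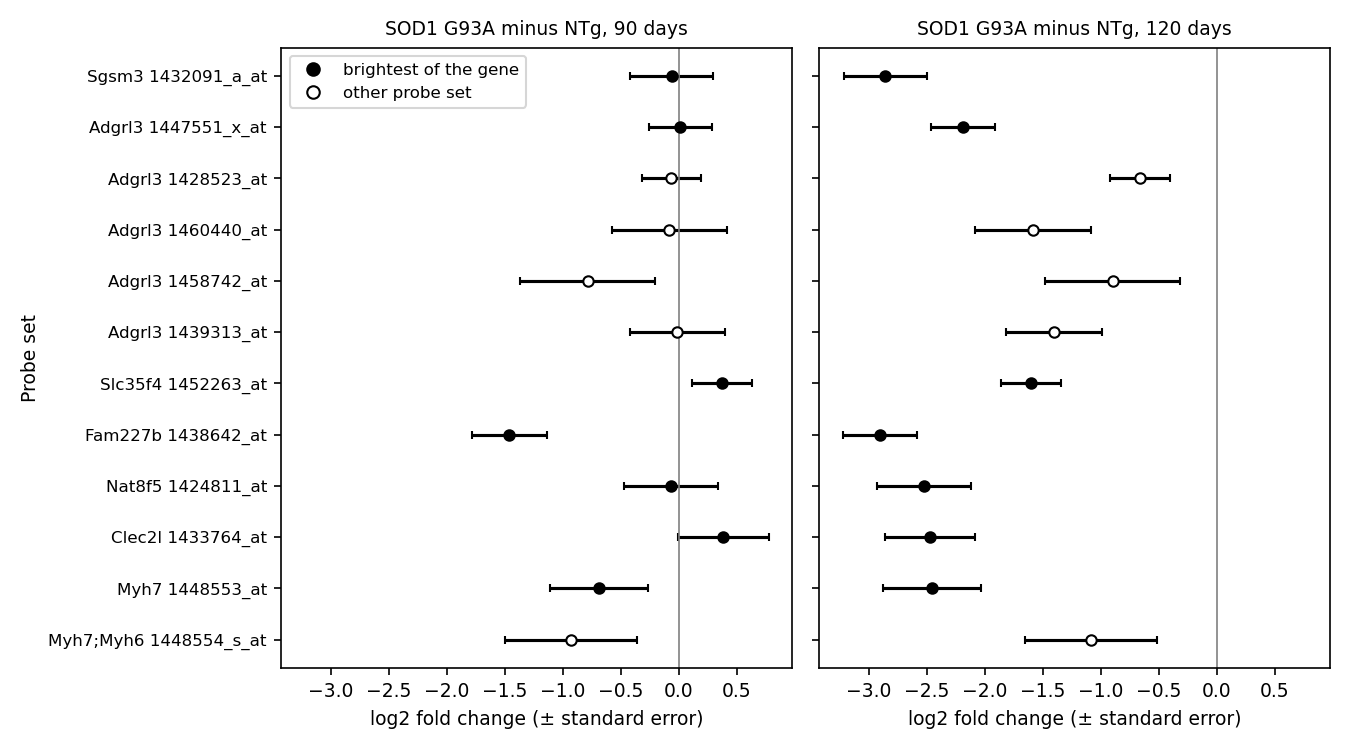
Log2 fold change (SOD1 G93A minus NTg) with its standard error for the 12 member probe sets that passed the filter, at 90 days (left) and 120 days (right), with the brightest probe set of each gene filled. At 90 days the brightest probe sets of 6 genes lie between -0.69 and 0.39 and that of Fam227b at -1.46, and at 120 days all 7 lie between -2.91 and -1.60.

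The members were then followed between the ages within each genotype, on values quantile normalized over all 12 arrays, to see which late-stage arrays carried the difference. Age and the set of arrays run at each age cannot be told apart. The log2 ratio of the Gapdh control probe sets at the 3′ and 5′ ends, a sign of RNA quality, was 4.45 to 5.16 in SOD1 G93A and 4.58 to 5.10 in NTg mice at 120 days, and 3.63 to 4.50 in SOD1 G93A and 3.51 to 4.64 in NTg mice at 90 days, and its part in the age differences was not tested. The late-stage arrays had also chosen the genes. Differences that use these arrays, and their distance from all probe sets, thus follow in part from that choice. In SOD1 G93A mice the difference of 120 minus 90 days had a median of -2.36 over the 7 genes, against -0.08 over all probe sets tested. In NTg mice the median was 0.06, against 0.02 over all. For 6 genes every late-stage SOD1 G93A array was below every symptomatic SOD1 G93A array, and for 5 it was also below every symptomatic NTg array. The late-stage NTg arrays were all above the symptomatic NTg arrays for 2 genes, Sgsm3 and Slc35f4, and all below them for 1, Fam227b. The shares of all probe sets without overlap between the ages were not counted. Whether these counts are unusual can therefore not be read from them.

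**Figure D3:**
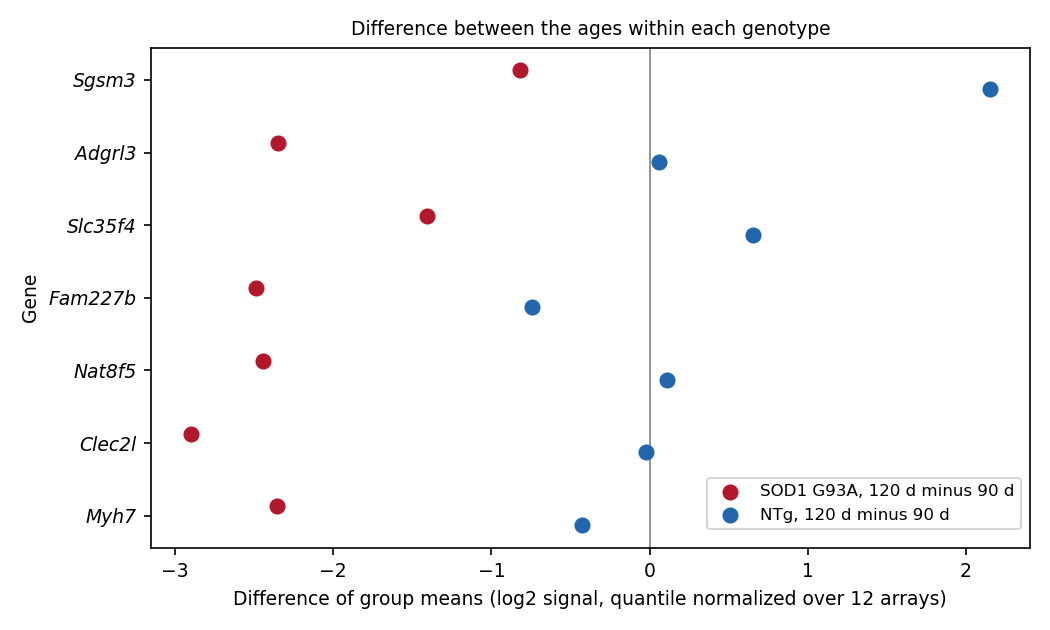
Difference between the group means at 120 and 90 days (log2 signal, quantile normalized over the 12 arrays) for each gene, with SOD1 G93A in red and NTg in blue. The SOD1 G93A values lie between -2.90 and -0.82, and the NTg values between -0.74 and 0.65 except for Sgsm3 at 2.15.

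The brightest probe sets showed 3 patterns. In Adgrl3, Nat8f5 and Clec2l the SOD1 G93A difference was -2.35, -2.44 and -2.90, and the NTg difference was near 0 (0.06, 0.11 and -0.02, with signs that changed with the scaling). For Adgrl3 this holds for the brightest probe set. Of its others, 1428523_at had 0.30 in SOD1 G93A and 0.96 in NTg mice, and 1439313_at had -0.98 in SOD1 G93A and 0.49 in NTg mice, with every late-stage NTg array above every symptomatic one in both. In Fam227b and Myh7 the SOD1 G93A difference was -2.49 and -2.36, and the NTg difference was negative too but smaller (-0.74 and -0.43). In Sgsm3 and Slc35f4 the differences had opposite signs, with -0.82 in SOD1 G93A and 2.15 in NTg mice for Sgsm3, and -1.41 in SOD1 G93A and 0.65 in NTg mice for Slc35f4. The SOD1 G93A arrays of Sgsm3 were dim and overlapped between the ages. Most of the late-stage contrast of Sgsm3 thus lay in the NTg arrays. Both signs of Sgsm3 were the same in the values as deposited, where the SOD1 G93A difference was -0.21 and the NTg difference 2.43.

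The brightest probe set of each gene stayed lower in SOD1 G93A mice without any 1 of the late-stage arrays. In all 7 every late-stage SOD1 G93A array lay below every late-stage NTg array. Their sign was thus fixed in advance, and only the size of the difference is described. For 3 other probe sets of Adgrl3 the omission of SOD1 G93A replicate 3 shrank the difference, to -0.94 (1460440_at), -0.91 (1439313_at) and -0.01 (1458742_at). With each of the 6 late-stage arrays left out in turn, the log2 fold change of the brightest probe sets at 120 days ranged over -3.16 to -2.51 for Sgsm3, -2.40 to -2.05 for Adgrl3 and -1.83 to -1.46 for Slc35f4. It ranged over -3.14 to -2.76 for Fam227b, -2.84 to -2.33 for Nat8f5, -2.80 to -2.10 for Clec2l and -2.67 to -2.21 for Myh7. The omission of NTg replicate 2 gave the smallest difference in 6 of the 7 genes, all but Slc35f4. Sgsm3 was kept in these fits, although without a late-stage NTg array it would have failed the filter.

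**Figure D4:**
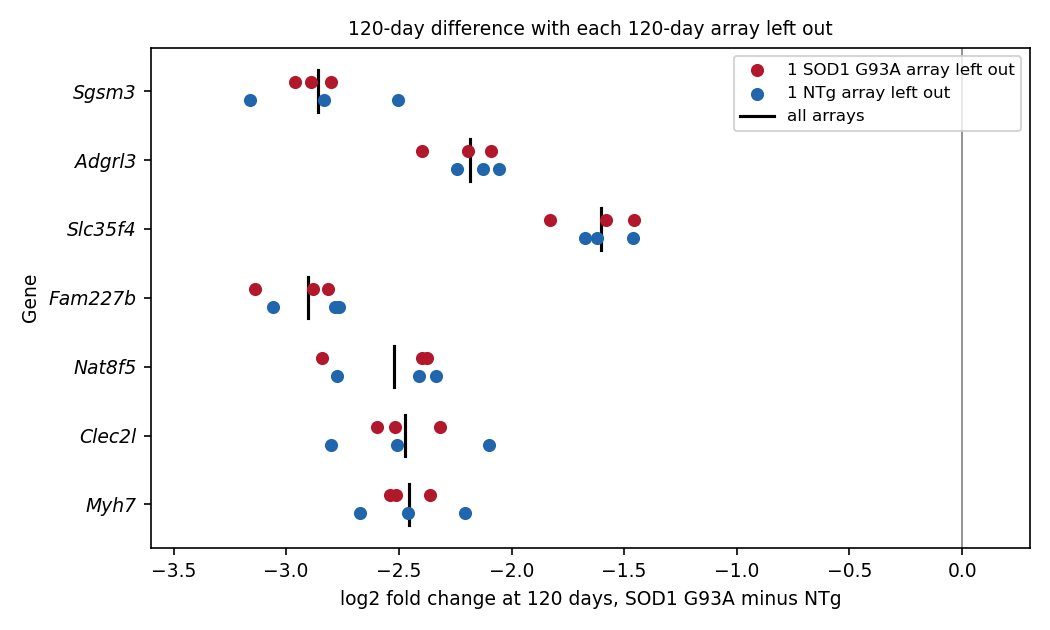
Log2 fold change at 120 days (SOD1 G93A minus NTg) of each gene with 1 late-stage array left out, in red where a SOD1 G93A array and in blue where a NTg array was omitted, with a black line at the value from all arrays. All values lie between -3.16 and -1.46.

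The arrays on which the genes were picked are among those of the correlations that follow, so genes chosen as low on the same 3 arrays correlate through that choice. Over the 12 arrays, which all pairs share, Pearson correlations of the log2 signal were 0.75 to 0.94 among the 6 genes other than Sgsm3, and 0.49 to 0.67 between Sgsm3 and each of them. The genes most like a member over the 12 arrays were named by the highest correlation. For Sgsm3 they were Cand1, Cadps and Wdfy3 (0.95, 0.95 and 0.94), for Adgrl3 Ss18l1, Paip1 and Atp6v1c1 (0.95, 0.94 and 0.94), and for Slc35f4 Nsun7, Zfp141 and Etohd2 (0.96, 0.92 and 0.91). For Fam227b they were Armcx2, Hecw1 and Gabra2 (0.96, 0.95 and 0.95), for Nat8f5 Slc39a9, Cdh7 and Osbpl1a (0.97, 0.94 and 0.94), for Clec2l Paip1, Med14 and Mmachc (0.96, 0.95 and 0.95), and for Myh7 A2ml1, Plbd2 and Esyt1 (0.95, 0.95 and 0.94). Paip1 was the 1 gene named for 2 members.

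Markers of other cells moved at the same stage. Of 14 neuronal genes 5 fell at 120 days (Nefm, Nefh, Nefl, Snap25 and Rbfox3), where the median of the list was -1.09, beside 4.45% of all genes called lower and a median of -0.08 over all genes. None passed at 90 days, and 2 had an unadjusted p under 0.05. Their mean log2 signal was 8.94 to 9.39 in SOD1 G93A and 9.96 to 10.3 in NTg mice at 120 days, and 9.13 to 9.72 in SOD1 G93A and 9.57 to 9.78 in NTg mice at 90 days. Without late-stage SOD1 G93A replicate 3, 1 of the 14 fell and the median was -0.84. Of 8 motor neuron genes Chodl and Mmp9 fell at 120 days (median of the list -0.95) and Chodl fell at 90 days (median -0.49), a call absent in the values as deposited. Their mean log2 signal was 4.92 to 5.42 in SOD1 G93A and 5.90 to 6.91 in NTg mice at 120 days. Each of these 7 late-stage calls was lost without NTg replicate 2 and also without NTg replicate 3.

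Of 10 microglial genes 8 rose at 120 days and 2 at 90 days, with a late-stage mean log2 signal of 8.27 to 8.46 in SOD1 G93A and 6.25 to 6.38 in NTg mice. Cx3cr1 and Trem2 lost the late-stage call under 5 and 9 of 16 other settings. Of 9 genes of reactive astrocytes 7 rose at 120 days and 2 at 90 days. Cd44 lost its late-stage call without NTg replicate 3 and with 120 days fitted alone. Of the 13 astrocyte genes 3 rose at 120 days (Aldh1l1, Sox9 and Gfap) and none at 90 days (1 had an unadjusted p under 0.05), beside 4.13% of all genes called higher at 120 days. The late-stage mean log2 signal of the list was 9.55 to 10.5 in SOD1 G93A and 9.39 to 9.73 in NTg mice. Its median log2 fold change was only 0.08, with 4.79 for Gfap, and 0 genes were called lower. Below 0 were Gjb6, S100b, Fgfr3, Aldoc, Atp1b2 and Glul (-0.80, -0.60, -0.57, -0.39, -0.19 and -0.07). Aldh1l1 and Sox9 lost the call without NTg replicate 2, and Sox9 also without NTg replicate 3 or SOD1 G93A replicate 2. The call of Aldh1l1 was lost after median centring too, and that of Sox9 with 120 days fitted alone. Of 9 oligodendrocyte genes Opalin rose, a call lost under 11 of 16 other settings, and none of 6 precursor genes (the brightest was Olig1, log2 fold change -0.15, limma adjusted p = 0.793) and of 8 endothelial genes (Rgs5, -0.29, limma adjusted p = 0.624) passed at 120 days. The part of these shifts in the lower signals of the 7 genes was not tested.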

How the data were processed

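The deposited values are linear signal intensities made by the authors with MAS5 from Affymetrix Mouse Genome 430 2.0 GeneChips after 2 rounds of linear amplification, 1 array per mouse and 3 per group. MAS5 version and parameters are not given in the sources used here. The labels describe toluidine blue staining, whereas the study's methods describe ALDH1L1 staining and PLIER values, which these are not. Intensities were taken as log2(intensity + 7), 7 being the 20th percentile, and quantile normalized within each age, or over all 12 arrays for differences between ages. The 64 controls among 45101 probe sets were excluded, and 26132 above the median of their array on at least 3 arrays were tested. One limma model (limma 3.58.1, R 4.3.3) of 4 group means with 8 residual degrees of freedom gave moderated tests, adjusted after Benjamini and Hochberg over all probe sets, with a threshold of 0.05. Gene symbols came from the platform annotation (34958 probe sets of 1 symbol, 932 of several, 9211 of none), and each gene was represented by its brightest probe set annotated to it alone. Lists are described by counts and medians. Named genes are the members, per member the 3 most correlated genes, the called genes of each list (up to 4) or its brightest, and the closest paralogs; further list genes were named after their values were seen. The members and lists were chosen with earlier results of these data known. Other settings tried were a trended and robust prior, array weights, separate fits of the ages, a block for the replicate number, a filter at the 75th percentile or none, median centring in place of quantile normalization, no normalization, an offset of 1 or of 34 (the 50th percentile), and the omission of each array. List counts without late-stage SOD1 G93A replicate 3 and calls of single list genes under each alternative were added after seeing the data. The steps were tested on simulated data. Figures were drawn with matplotlib 3.10.9. The number of arrays limits the precision, and background and present calls were not analysed here.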

Additional observations from a re-analysis of the deposited data

Results flagged for a closer look

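Slc35f4 (1452263_at) stood out because its difference between the genotypes ran in opposite directions at the ages, with every SOD1 G93A array above every NTg array at 90 days and below every NTg array at 120 days. The log2 fold change was 0.37 at 90 days and -1.60 at 120 days. The difference of -1.97 between them is given without a test, since the late-stage arrays had chosen the gene. Over all probe sets tested, 0 were called in limma for such a difference between the ages. How many of all probe sets changed sides without overlap in this way was not counted.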

How the results depend on the processing

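At 90 days 36 probe sets were called over the whole table. There were 68 with the offset at the 50th percentile, 131 with array weights, 22 with no filter, 13 with each age fitted alone and 12 (without SOD1 G93A replicate 3 of 90 days) to 60 (without SOD1 G93A replicate 3 of 120 days) with 1 array left out. At 120 days 1948 were called, with 3500 after median centring, 2946 with the offset at the 50th percentile, 1244 with no filter, 759 with each age alone and 476 (without NTg replicate 2 of 120 days) to 2432 (without SOD1 G93A replicate 1 of 120 days) with 1 array left out. The median log2 fold change of the 7 genes at 90 days was -0.30 to 0.20 with 1 array left out. At 120 days it was -3.27 with an offset of 1, -1.40 with the offset at the 50th percentile and -2.67 to -2.21 with 1 array left out, since the offset sets how far dim signals are drawn together. The median difference between the ages was -1.91 in SOD1 G93A mice in the values as deposited, -3.09 with an offset of 1 and -2.48 to -2.16 with 1 array left out, and in NTg mice it was -0.28 to 0.16 with 1 array left out. No member probe set that passed the filter changed its direction at 120 days under any alternative run. For the brightest probe sets the omission of 1 array could not change it, since the late-stage genotypes did not overlap. The dim probe sets 1430919_at and 1448827_s_at failed the filter, had higher means in late-stage SOD1 G93A mice and were not part of these runs. Of 261 fits of member probe sets at 90 days, 2 had an adjusted p under 0.05, both of Fam227b. Replicate numbers did not pair the samples (18 pairs, correlations of -0.28 to 0.28, 3 over 0.1). With the replicate number as a block, 27 probe sets were called at 90 days and 2041 at 120 days, and Fam227b had an adjusted p of 0.208 at 90 days in limma. Signals of late-stage SOD1 G93A arrays near the offset of 7 carry little precision, and the cause of the shifts between settings was otherwise not tested.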
